A study of Mus musculus with 2 samples.

Results

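The 9 genes described here are imprinted genes known from neurons, and all 9 were found by symbol among the 25556 genes of the deposited counts: *Ube3a*, *Snhg14*, *Snrpn*, *Ndn* and *Magel2* on chromosome 7, *Meg3*, *Rian* and *Mirg* on chromosome 12, and *Peg3* at another place on chromosome 7. The set is a list of names, with no threshold on a measured value, but it was chosen with earlier results of these data known. The paper already names *Ube3a* among the genes most upregulated in HET across all its clusters, from the same libraries. In the brainstem, *Ube3a* was 1.40-fold higher in the HET than in the WT library and was higher in each of the 12 clusters compared. *Ndn* was 1.76-fold, *Magel2* 1.64-fold, *Mirg* 1.42-fold and *Peg3* 1.28-fold lower in HET, whereas *Meg3*, *Rian*, *Snrpn* and *Snhg14* differed by less than 1.2-fold.

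The nuclei came from the brainstem of 2 C57Bl6 females at postnatal day 41, 1 of each genotype (WT and HET). The HET mouse carried the A1783V missense knock-in on 1 of its 2 copies of *Scn1a*, the sodium channel gene mutated in Dravet Syndrome, and the WT mouse was a littermate without it. The mutant allele came from crossing a floxed male with a Sox2-Cre female, a driver active in the whole embryo, so it was not restricted to 1 cell type. Neither mouse was treated. Since the study bred the allele through the sire, every HET mouse of this cross inherited it from the father, and no reciprocal cross was analysed here.

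The libraries came from the 10x Chromium 3′ platform, in which a unique molecular identifier (UMI) counts each captured RNA molecule once. There were 9259 WT nuclei with 70301390 UMIs and 9022 HET nuclei with 66176778 UMIs, and 23 barcodes occurred in both libraries. *Scn1a* itself stood at 380.2 UMIs per 1000000 UMIs (CPM) in WT and 420.4 in HET, and a missense change cannot be seen in gene counts. The deposited annotation has 16 clusters, 9 of them neuronal, and comparisons were made in the 12 (6 neuronal) to which WT and HET each gave at least 30 nuclei. Neuron.5, with 42 WT and 332 HET nuclei, stood apart in its share. Only 108 of the 405 nuclei of the micro cluster also carried the microglia label of the second deposited annotation. The median percentage of UMIs from ribosomal protein genes was 0.696 in WT and 0.407 in HET nuclei, and that of mitochondrial genes 0.343 and 0.458. The part of these differences in the results was not tested. With 1 library per genotype no test was possible and no difference has a replicate check, so a difference between the mice and a difference between the libraries cannot be told apart. Intervals are at 95%, exact, and cover counting error only.

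An imprinted gene is expressed mainly from the copy inherited from 1 parent, because DNA methylation laid down in egg or sperm silences the other copy. *Ube3a* encodes a ubiquitin ligase whose loss causes Angelman syndrome. In neurons it is read from the maternal copy, and the long noncoding transcript *Snhg14*, read from the paternal copy on the opposite strand, runs into *Ube3a* and keeps the paternal copy silent. *Snrpn*, *Ndn* and *Magel2* are paternally expressed and belong to the region lost in Prader-Willi syndrome. *Snrpn* encodes a splicing protein of small nuclear ribonucleoproteins, *Ndn* (necdin) a protein of the MAGE family that holds back cell division, and *Magel2* a second MAGE protein with a role in endosomal protein sorting. *Meg3*, *Rian* and *Mirg* are maternally expressed noncoding RNAs that follow each other on 1 strand, and *Rian* hosts small nucleolar RNAs while *Mirg* hosts a large group of microRNAs. *Peg3* is a paternally expressed zinc finger gene with a role in maternal behaviour. The counts do not separate the parental copies, so every value below is the sum of both.

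By the GENCODE vM21 annotation of GRCm38, the build of the mm10 reference that the authors used, *Ube3a* (ENSMUSG00000025326) lies at chr7:59228750-59311536 on the plus strand and *Snhg14* (ENSMUSG00000100826) at chr7:59307924-59975759 on the minus strand. The genes overlap in 3613 bases at the 3′ end of *Ube3a*. The study used Cell Ranger at its recommended parameters and does not state how strand was handled. The part of the shared bases in the values was not tested. *Snrpn* (ENSMUSG00000102252, chr7:59982495-60140219, minus) ends 6735 bases upstream of the annotated start of *Snhg14*. *Ndn* (ENSMUSG00000033585, chr7:62346569-62350262, plus) and *Magel2* (ENSMUSG00000056972, chr7:62377010-62381640, plus) lie 26747 bases apart, and each has 1 exon. On chromosome 12, *Meg3* (ENSMUSG00000021268, chr12:109541001-109571726), *Rian* (ENSMUSG00000097451, chr12:109603940-109661716) and *Mirg* (ENSMUSG00000097391, chr12:109729764-109749460) all lie on the plus strand, and *Rtl1*, a paternally expressed gene of retrotransposon origin, lies between *Meg3* and *Rian* on the minus strand. *Peg3* (ENSMUSG00000002265, chr7:6703892-6730431, minus) and *Usp29*, a ubiquitin protease gene on the plus strand, start 146 bases apart and run away from each other.

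The start regions of the transcripts that are compared within a locus are shown first, as RefSeq gives them for GRCm38.p6 (250 bases before to 50 after the start, each in the direction of its gene). Capitals mark CGCATGCG, the core of the NRF1 motif, TGACGTCA, the cyclic AMP response element, AAGATGGC, a core of the YY1 motif, and TATAAA, each searched on both strands. Of 32544 RefSeq promoter windows of this length, 1.87% hold CGCATGCG, 1.80% TGACGTCA, 2.77% AAGATGGC and 13.6% TATAAA. A match is a run of letters and not a shown binding site.
*Ube3a*, chr7:59228500-59228799, plus: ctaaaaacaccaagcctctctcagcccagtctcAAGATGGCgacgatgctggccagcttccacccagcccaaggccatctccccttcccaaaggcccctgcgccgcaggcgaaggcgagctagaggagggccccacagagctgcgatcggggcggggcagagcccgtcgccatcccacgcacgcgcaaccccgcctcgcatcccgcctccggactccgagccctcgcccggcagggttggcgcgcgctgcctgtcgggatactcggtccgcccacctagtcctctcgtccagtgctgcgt
*Snhg14* and *Snrpn*, upstream start, chr7:60450128-60450427, minus: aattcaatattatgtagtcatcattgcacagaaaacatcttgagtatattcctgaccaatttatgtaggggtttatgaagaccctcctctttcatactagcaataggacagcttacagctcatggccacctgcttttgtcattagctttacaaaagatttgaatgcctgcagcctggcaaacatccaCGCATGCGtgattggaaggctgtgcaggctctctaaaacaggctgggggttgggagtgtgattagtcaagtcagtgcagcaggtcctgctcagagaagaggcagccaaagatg
*Snrpn*, start at the annotated gene, chr7:60140176-60140475, minus: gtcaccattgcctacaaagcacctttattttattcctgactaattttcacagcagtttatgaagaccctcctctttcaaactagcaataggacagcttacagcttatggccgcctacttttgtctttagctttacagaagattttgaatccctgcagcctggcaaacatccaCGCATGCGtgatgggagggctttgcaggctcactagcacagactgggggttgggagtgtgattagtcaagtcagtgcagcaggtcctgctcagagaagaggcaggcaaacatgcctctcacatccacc
*Meg3*, chr12:109540746-109541045, plus: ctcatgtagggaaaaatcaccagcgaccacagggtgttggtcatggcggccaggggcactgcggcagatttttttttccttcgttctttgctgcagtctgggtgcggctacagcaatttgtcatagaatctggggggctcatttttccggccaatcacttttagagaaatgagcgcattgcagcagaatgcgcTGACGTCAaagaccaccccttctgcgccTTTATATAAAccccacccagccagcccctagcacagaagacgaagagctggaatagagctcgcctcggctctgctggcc
*Peg3*, chr7:6730370-6730669, minus: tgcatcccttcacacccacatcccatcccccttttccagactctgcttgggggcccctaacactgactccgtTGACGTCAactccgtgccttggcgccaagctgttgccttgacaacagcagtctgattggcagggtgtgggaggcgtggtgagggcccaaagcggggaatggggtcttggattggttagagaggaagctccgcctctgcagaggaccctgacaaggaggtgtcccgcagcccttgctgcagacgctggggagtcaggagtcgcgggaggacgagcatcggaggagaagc
*Ndn*, chr7:62348027-62348326, plus: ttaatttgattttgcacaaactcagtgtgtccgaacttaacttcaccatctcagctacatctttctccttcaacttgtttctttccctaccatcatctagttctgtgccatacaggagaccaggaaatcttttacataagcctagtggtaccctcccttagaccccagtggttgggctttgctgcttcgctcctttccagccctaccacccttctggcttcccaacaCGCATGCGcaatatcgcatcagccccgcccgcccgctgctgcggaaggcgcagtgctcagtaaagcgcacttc

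The window given for *Snhg14* is letter for letter the most upstream of the 4 *Snrpn* windows. RefSeq thus starts both transcripts at 1 place, and the 3 upstream *Snrpn* windows are 79.8 to 81.4% identical to each other. All 4 *Snrpn* windows and that of *Ndn* hold CGCATGCG. The *Ube3a* window holds AAGATGGC and 29 CpG dinucleotides, against a median of 7 over all windows and 2 in the *Snhg14* window. The *Peg3* and *Usp29* windows share 263 of their 300 bases on opposite strands, including the TGACGTCA run. The *Meg3* window holds the same run, and further on TATAAA on both strands, overlapping. No motif of the 4 was found in the windows of *Rian* and *Mirg*.

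The transcripts of the *Meg3* locus also carry microRNAs, which this kind of library does not measure. By RefSeq, *Mirg* spans 26 mature microRNAs of 14 microRNA genes, *Rian* 6 and *Meg3* 3, all on the strand of the host. *Rtl1* spans 13, of which 11 lie on the opposite strand, the strand of *Meg3* and *Rian*. A few are shown because, of these 4 transcripts, *Mirg* and *Rtl1* differed most between the libraries, with the seed (bases 2 to 8) in capitals. The 26 of *Mirg* have 25 seeds, and the 1 shared seed belongs to the last pair.
mmu-miR-127-3p, opposite strand of *Rtl1*: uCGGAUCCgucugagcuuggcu
mmu-miR-136-5p, opposite strand of *Rtl1*: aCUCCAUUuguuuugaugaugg
mmu-miR-134-5p, in *Mirg*: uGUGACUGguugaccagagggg
mmu-miR-410-3p, in *Mirg*: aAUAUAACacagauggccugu
mmu-miR-453, in *Mirg*: aGGUUGCCucauagugagcuugca
mmu-miR-496a-5p, in *Mirg*: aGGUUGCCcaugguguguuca

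The label of neuronal genes was checked first. In nuclei of the neuronal clusters *Ube3a* stood at 2351 CPM in WT and 3418.5 in HET, and *Meg3* at 11644 and 11086. To look outside neurons, 5969 nuclei were used in which both deposited labels name a matching non-neuronal type. For the ependymal clusters the label of epithelial cells counted as matching. The mix of types differed between the libraries, with 161 WT and 48 HET endothelial nuclei. In these 5969 nuclei the level of *Ube3a* was 9.10% (8.85 to 9.35) of that in neuronal clusters, both libraries summed. That of *Snhg14* was 10.9%, *Meg3* 10.8%, *Rian* 11.6% and *Mirg* 11.5%. The neuronal markers *Rbfox3* and *Snap25* stood at 10.6% and 20.4% of their neuronal level in the same nuclei, and both marker genes of transmitter type higher still (*Slc17a6* at 52.9%, *Slc32a1* at 78.6%). *Rbfox3* is a neuronal splicing factor gene that glia are known to lack. The order of the genes against it differed between the libraries, because *Rbfox3* stood at 6.999% (5.89 to 8.26) of its neuronal level in WT and at 12.4% (11.3 to 13.7) in HET. *Ube3a* stood at 8.64% (8.25 to 9.05) in WT, above the *Rbfox3* interval, though their intervals just met. In HET it stood at 8.98% (8.68 to 9.29), below the *Rbfox3* interval of that library. *Meg3*, at 8.77% (8.59 to 8.95) in WT and 12.6% (12.4 to 12.8) in HET, was above the interval in WT and within it in HET. *Snhg14* (9.63% and 11.6%), *Rian* (11.1% and 11.8%) and *Mirg* (10.4% and 13.4%) were likewise above it in WT and within it in HET. Whether the UMIs outside neurons come from free RNA, doublets or the cells themselves was not tested.

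*Peg3* stood at 23.9% (23.0 to 24.8) and *Snrpn* at 30.4% (29.1 to 31.8) of the neuronal level outside neurons, above *Rbfox3* and *Snap25*, and both are genes known to be expressed beyond neurons. *Magel2* gave 23.7% (14.6 to 36.2) from 21 UMIs. *Ndn* went against the label, with 47.6 CPM (44.6 to 50.8) outside neurons and 34.2 CPM in neuronal clusters, or 139% (131 to 148). Per nucleus, *Ndn* counted 0.158 UMIs outside neurons and 0.334 in neuronal clusters, whose nuclei hold more UMIs in all. With every nucleus thinned to 1000 UMIs, 5.26% of the non-neuronal and 4.44% of the neuronal nuclei kept a UMI of *Ndn* (14.3% and 27.0% unthinned, at median depths of 2837 and 8055 UMIs). The same thinning gave 22.8% and 89.6% for *Ube3a*, 12.4% and 66.1% for *Snhg14*, 70.4% and 99.8% for *Meg3* and 2.65% and 21.3% for *Rbfox3*.

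Within the same non-neuronal nuclei, both libraries summed, *Ndn* stood at 46.1 CPM (42.5 to 49.8) in oligodendrocytes and 45.6 (39.6 to 52.2) in astrocytes, a difference within counting error. In endothelial cells it stood at 61.8 (44.2 to 84.2, 40 UMIs). Microglia had 88.8 (54.2 to 137, 20 UMIs), with an interval above those of oligodendrocytes and astrocytes. *Peg3* was lower in oligodendrocytes, at 128 CPM (122 to 134), than in astrocytes, at 181 (169 to 194). *Snrpn* had the reverse order, 109 CPM (104 to 115) in oligodendrocytes and 66.4 (59.1 to 74.3) in astrocytes. *Ube3a* stood at 269 CPM (261 to 278) and 236 (223 to 251), and *Meg3* at 1230 (1211 to 1249) and 1162 (1131 to 1194).

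**Figure D1:**
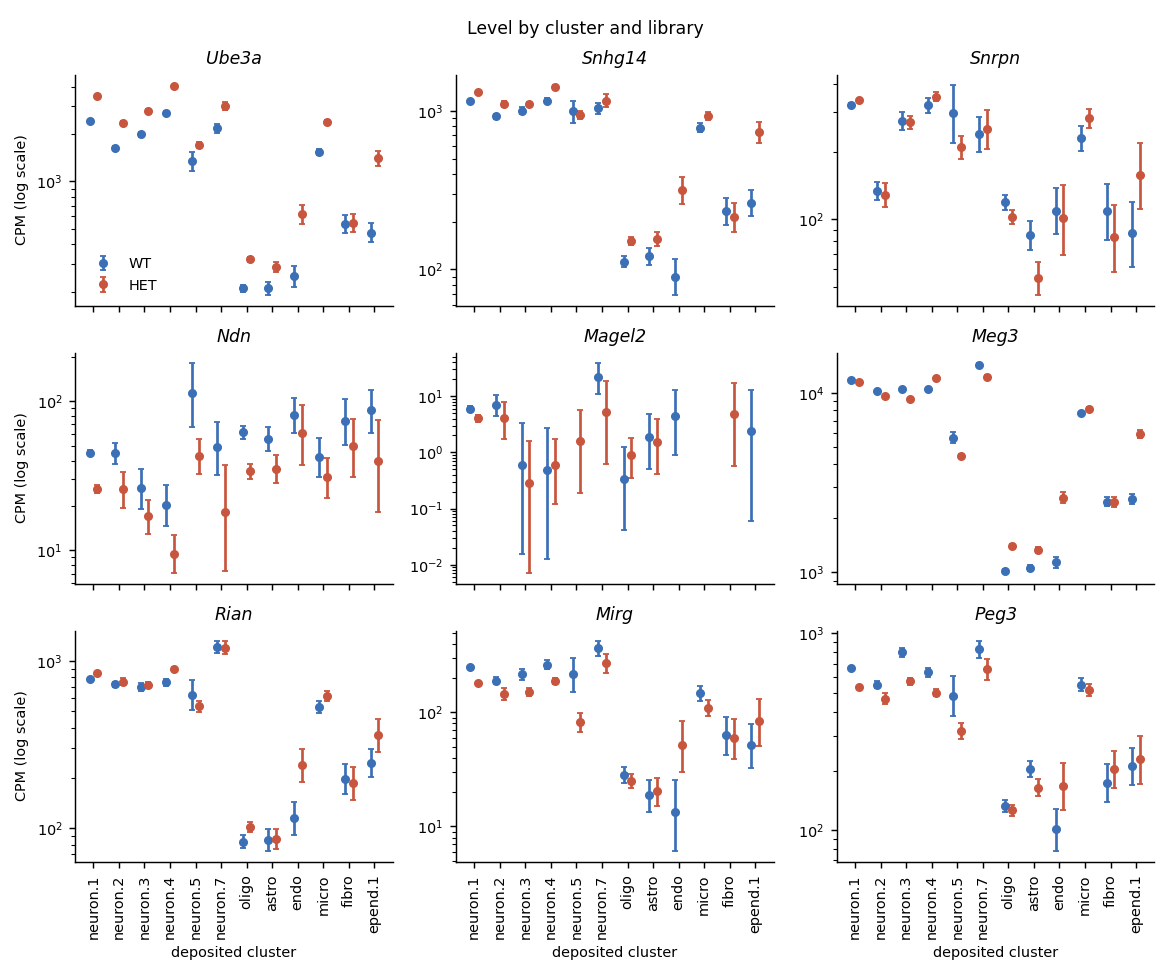
Level of the 9 genes (CPM, log scale) in the 12 compared clusters, WT in blue and HET in red, with exact Poisson 95% intervals. The 6 neuronal clusters are on the left; a library with no UMI of *Magel2* in a cluster has no point. *Ube3a*, *Snhg14*, *Meg3*, *Rian*, *Mirg* and *Peg3* were higher in each of the 6 neuronal clusters than in the oligo and astro clusters, and *Ndn* was not.

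Across neuronal clusters *Ube3a* ran in WT from 1348 CPM in neuron.5 and 1632 in neuron.2 through 1992 in neuron.3, 2169 in neuron.7 and 2423 in neuron.1 to 2713 in neuron.4. The HET order was the same, from 1700.0 in neuron.5 to 4036 in neuron.4. *Snhg14* varied less, from 926 to 1161 CPM in WT and from 944 to 1423 in HET. *Meg3* was lowest in neuron.5 (5633 CPM in WT, 4425 in HET) and highest in neuron.7 (14296 and 12270). *Rian* and *Mirg* were also highest in neuron.7, with 1208 and 364 CPM in WT. *Snrpn* was lowest in neuron.2, with 134 CPM in WT against 240 to 324 in the other 5. *Ndn* had the opposite order to *Ube3a* at the ends, highest in neuron.5 (114 CPM in WT) and lowest in neuron.4 (20.3). Neuron.9, a cluster of 35 WT and 2 HET nuclei, is labelled neuronal and was not compared. Its WT nuclei held 84782 UMIs in all, so its levels rest on few counts. In WT it held *Ube3a* at 248 CPM and *Meg3* at 1628, below each of these 6 clusters. *Snrpn* at 991 and *Ndn* at 377 were above each of them. *Snap25* (124 UMIs), *Slc32a1* (10) and *Slc17a6* (8) stood higher there in WT CPM than in the neuronal clusters together, and *Rbfox3* (4) lower.

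Over all nuclei, *Ube3a* stood at 2040.3 CPM (2029.7 to 2051) in WT and 2864 (2851 to 2877) in HET, a log2 ratio HET over WT of 0.49 (0.48 to 0.50). *Ube3a* was the 1 of the 9 genes that was at least 1.2-fold higher in HET, in a data set in which 15.6% of the 16347 genes with at least 200 UMIs were that much higher. *Ndn*, *Magel2*, *Mirg* and *Peg3* were the 4 that were at least 1.2-fold lower, where 33.6% of all tested genes were. The counts of 1 and 4 of 9 are near what these shares give, so the set as a whole did not stand out in either direction. The median log2 ratio was −0.11 over the 9 genes and −0.10 over all tested genes, so a gene at 0 stood above the middle of the data. In neuronal clusters the same genes passed 1.2-fold, 1 higher and 4 lower, beside 15.2% and 32.3% of 15352 genes, with medians of −0.07 and −0.09.

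**Figure D2:**
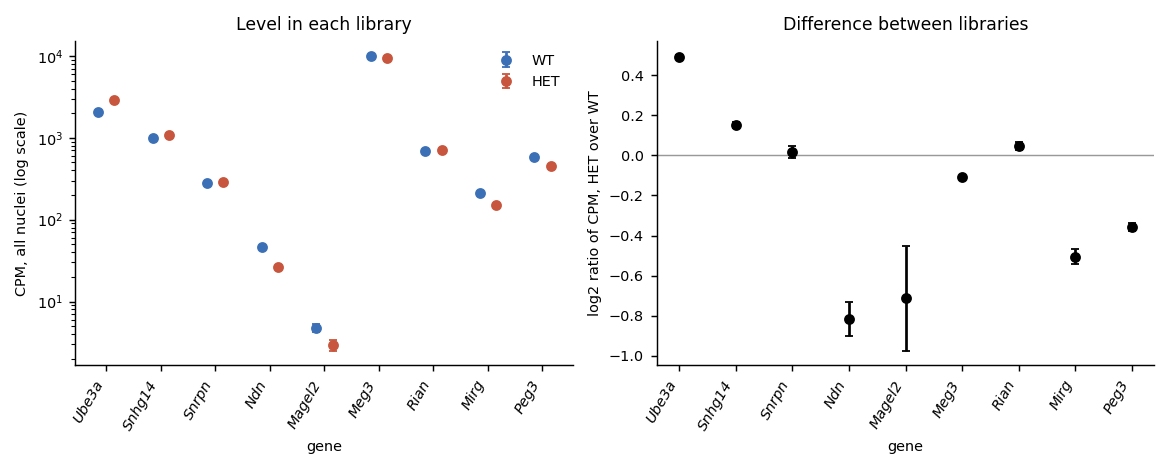
Left, CPM of each gene over all nuclei on a log scale, WT in blue and HET in red. Right, the log2 ratio HET over WT. Bars are exact 95% counting intervals, smaller than most points. *Ube3a* stood at 0.49 and *Ndn* at −0.82, and the interval of *Snrpn* included 0.

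At the *Ube3a* and *Snhg14* locus both transcripts were higher in HET, *Ube3a* by more. *Snhg14* went from 984 CPM (976 to 991) to 1091 (1083 to 1099), a log2 ratio of 0.15 (0.13 to 0.16). *Ube3a* was higher in HET in all 12 clusters, with an interval above 0 in 11, the exception being fibro (0.02, −0.24 to 0.29). The sum of the 4 neuronal markers named above also differed in the non-neuronal clusters. Its log2 ratio was 0.24 in oligo, 0.12 in astro, 0.38 in endo, 0.55 in micro, 1.05 in epend.1 and −0.22 in fibro. The intervals in astro and fibro included 0. The part of these markers in the *Ube3a* ratios was not tested. In the 6 neuronal clusters the log2 ratio of *Ube3a* lay between 0.33 in neuron.5 and 0.57 in neuron.4. Within neuron.1, which holds 5032 WT and 4079 HET nuclei, all 7 deposited subclusters of at least 30 WT and 30 HET nuclei had *Ube3a* higher in HET, by 0.48 to 0.61. *Snhg14* was higher in 5 of 6 neuronal clusters, by up to 0.29, and at −0.07 (−0.31 to 0.18) in neuron.5.

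Taken against *Snhg14* in the same nuclei, *Ube3a* gave 208 UMIs per 100 *Snhg14* UMIs (206 to 210) in WT neuronal clusters and 264 (262 to 266) in HET. This ratio does not use the library totals. It was higher in HET in 11 of 12 clusters, and in 5 the intervals of WT and HET did not meet. The exception, endo, gave 277 (206 to 378) in WT and 195 (153 to 250) in HET. In neuron.1 the values were 209 and 266, and in neuron.5 they were 136 (110 to 168) and 180 (168 to 193), whose intervals just met.

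Nuclei of neuron.1 were then thinned to 5000 UMIs each and sorted by their own *Snhg14* UMIs, which left out 1194 WT and 480 HET nuclei with fewer UMIs. In WT, nuclei with 0 to 2 *Snhg14* UMIs held 10.8 *Ube3a* UMIs (10.5 to 11.1) on average, and the next groups 11.9 (3 to 5), 12.2 (6 to 8) and 13.4 (9 or more). In HET the values were 15.7 (15.2 to 16.3), 16.9, 17.5 and 18.2. At this depth mean *Ube3a* rose over the groups in both libraries. The HET nuclei with the fewest *Snhg14* UMIs held more *Ube3a* than the WT nuclei with the most. *Meg3* in the same nuclei went from 56.7 to 60.5 UMIs in WT and from 50.1 to 59.7 in HET over these groups. Thinned to 2000 UMIs, the WT values of *Ube3a* were 4.64, 4.91, 4.90 and 6.44, the last from 9 nuclei. Those of HET were 6.60, 7.02, 7.65 and 7.91, the last from 11 nuclei. The counts sum both parental copies, so silencing of the paternal copy was not tested.

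*Snrpn*, whose upstream start is the one *Snhg14* shares, hardly differed, with 282 CPM (278 to 285) in WT and 285 (281 to 289) in HET, a log2 ratio of 0.02 (−0.01 to 0.04). It was above 0 in 3 of 6 neuronal clusters, with its interval above 0 in neuron.1 (0.07) and below 0 in neuron.5 (−0.51). In the oligo and astro clusters it was lower in HET, at −0.22 (−0.36 to −0.07) and −0.64 (−0.97 to −0.32). *Snrpn* per 100 *Snhg14* UMIs was lower in HET in 11 of 12 clusters, with 4 pairs of intervals apart. In neuronal clusters it was 27.6 in WT and 25.2 in HET.

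*Ndn* and *Magel2*, the intronless MAGE genes, were lower in HET. *Ndn* had 3242 UMIs in WT and 1734 in HET, or 46.1 CPM (44.5 to 47.7) and 26.2 (25.0 to 27.5), and a log2 ratio of −0.82 (−0.90 to −0.73). It was lower in all 12 clusters, with an interval below 0 in 9, and among the 6 neuronal clusters the ratio ran from −0.63 in neuron.3 to −1.45 in neuron.7 (25 and 7 UMIs). *Magel2* had only 334 and 192 UMIs, 4.75 CPM (4.26 to 5.29) and 2.90 (2.51 to 3.34), with a log2 ratio of −0.71 (−0.98 to −0.45). Just 2 clusters held at least 20 UMIs of it, neuron.1 at −0.55 (−0.84 to −0.27) and neuron.2 at −0.79 (−2.15 to 0.41), so a difference in the other clusters was not detectable at this depth. Within neuron.1, *Magel2* was below 0 in the 6 subclusters with at least 20 UMIs, with an interval below 0 in 2, subcluster 0 (−1.04) and subcluster 1 (−1.88, with 1714 WT and 511 HET nuclei). Subclusters 3, 5 and 9 stood at −0.07, −0.04 and −0.08. *Ndn* was lower in all 7, by 0.34 to 1.30.

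**Figure D3:**
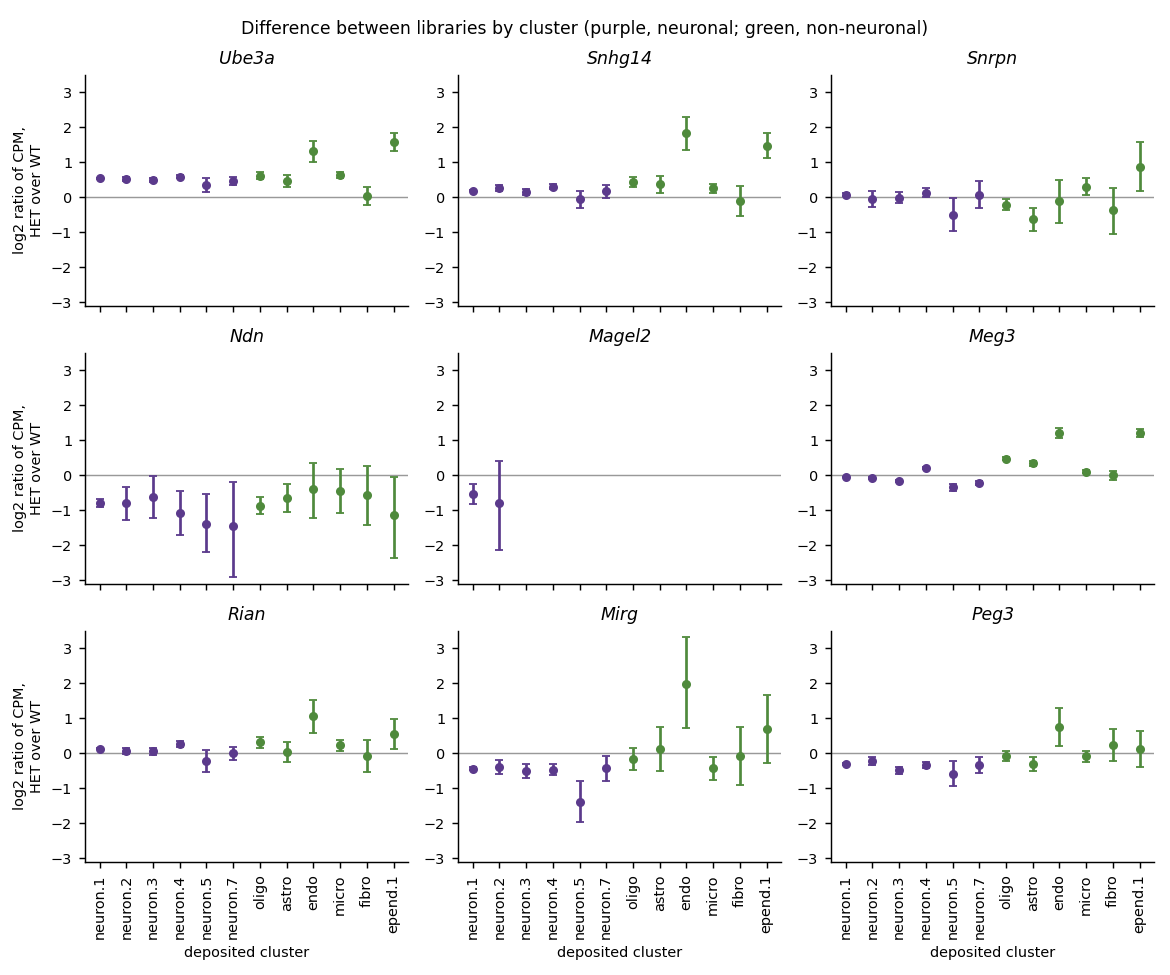
Log2 ratio of CPM, HET over WT, of each gene in each cluster where it had at least 20 UMIs, with exact 95% counting intervals. Neuronal clusters are purple and non-neuronal ones green; the line is at 0. *Ube3a* lay above 0 in 12 of 12 clusters and *Ndn* below 0 in 12 of 12, *Mirg* and *Peg3* below 0 in 6 of 6 neuronal clusters, and *Magel2* could be shown in 2 clusters.

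At the *Meg3* locus the 3 maternally expressed RNAs did not move together. *Meg3* itself took 1.01% of all UMIs in WT and 0.937% in HET, or 10107 CPM (10084 to 10131) and 9368 (9345 to 9392), with a log2 ratio of −0.11, at the median of all genes. It was lower in 5 of 6 neuronal clusters, by 0.35 in neuron.5 and less in the others, and higher in neuron.4, at 0.20 (0.18 to 0.22). *Rian* stood at 685 CPM (679 to 691) and 708 (701 to 714), a log2 ratio of 0.05 (0.03 to 0.07). *Rian* per 100 *Meg3* UMIs was 6.75 in WT and 7.57 in HET neuronal clusters.

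*Mirg*, the microRNA host at the far end of the locus, was lower in HET, with 212 CPM (209 to 216) in WT and 149 (147 to 152) in HET, a log2 ratio of −0.51 (−0.54 to −0.47). All 6 neuronal clusters were lower, from −0.39 in neuron.2 to −1.39 in neuron.5, each with its interval below 0. All 7 neuron.1 subclusters were lower as well, by 0.34 to 0.55. *Mirg* per 100 *Meg3* UMIs was 2.10 (2.06 to 2.13) in WT and 1.60 (1.56 to 1.63) in HET neuronal clusters, and lower in HET in 11 of 12 clusters, with 7 pairs of intervals apart. The exception was again endo, with 9 WT and 17 HET UMIs of *Mirg*. Without a library total in the ratio, the 2 RNAs of 1 strand, 158037 bases apart, thus differed between the libraries.

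*Rtl1*, on the other strand between *Meg3* and *Rian*, went the other way. It had 4763 UMIs in WT and 8434 in HET, or 67.8 CPM (65.8 to 69.7) and 127 (125 to 130.2), with a log2 ratio of 0.91 (0.86 to 0.96), above that of 97.2% of the tested genes. It was higher in 5 of 6 neuronal clusters, by 0.83 to 1.07, and at −0.02 in neuron.5. *Rtl1* per 100 *Meg3* UMIs was higher in HET in 12 of 12 clusters, with 6 pairs of intervals apart, and in neuronal clusters 0.663 (0.643 to 0.682) in WT and 1.35 (1.33 to 1.39) in HET. *Rtl1* has annotated microRNA precursors on its opposite strand, and whether RNA of that strand entered its count was not tested.

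*Peg3* was lower in HET, with 586 CPM (581 to 592) in WT and 458 (453 to 463) in HET, a log2 ratio of −0.36 (−0.38 to −0.34). It was lower in all 6 neuronal clusters, from −0.24 in neuron.2 to −0.60 in neuron.5, and in all 7 subclusters of neuron.1, by 0.10 to 0.37. With the median gene set to 0, *Peg3* stood at −0.25 over all nuclei, short of 1.2-fold. *Usp29*, which starts in the same stretch and runs the other way, stood at 422 CPM (418 to 427) and 454 (449 to 459.5), a log2 ratio of 0.10 (0.08 to 0.13). *Usp29* per 100 *Peg3* UMIs was 74.5 (73.3 to 75.6) in WT and 104 (103 to 106) in HET neuronal clusters, higher in HET in 10 of 12 clusters with 7 pairs of intervals apart. The level of *Usp29* varied more over the clusters than that of *Peg3*: in WT it ran from 206 CPM in neuron.3 to 1655 in neuron.7 over the neuronal clusters, and that of *Peg3* from 483 to 831.

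**Figure D4:**
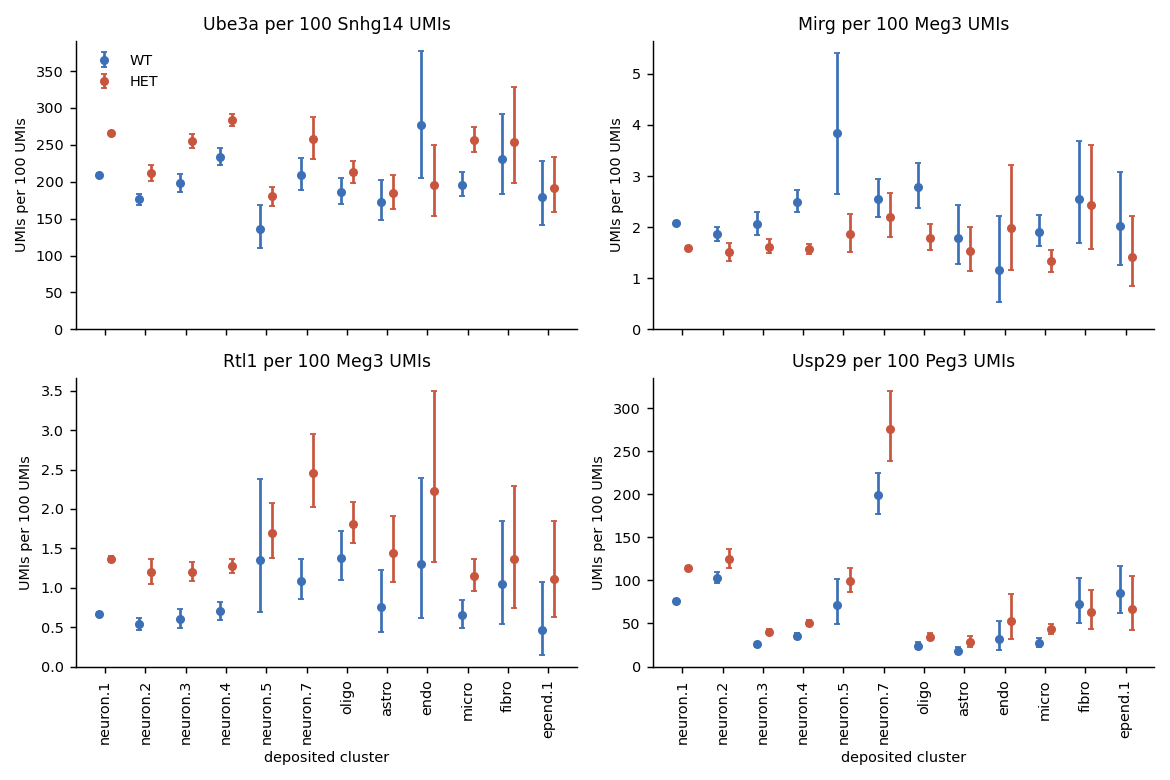
UMIs of 1 gene per 100 UMIs of a second gene of the same locus in each of the 12 clusters, WT in blue and HET in red, with exact 95% counting intervals and axes from 0. *Ube3a* against *Snhg14* was higher in HET in 11 clusters, *Mirg* against *Meg3* lower in 11, *Rtl1* against *Meg3* higher in 12, and *Usp29* against *Peg3* higher in 10.

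The genes with the pattern most like *Ube3a* over the 12 clusters in each of the 2 libraries were *Snhg14*, the amino acid transporter gene *Slc6a15* and *Hecw1*, a ubiquitin ligase gene, with Pearson correlations of 0.98, 0.98 and 0.98 over these 24 points (log2 of CPM + 1, 11648 genes compared). For *Snhg14* they were *Ksr2*, a scaffold of the MAP kinase pathway (0.99), *Myt1l*, a neuronal transcription factor (0.99), and *Ube3a* (0.98). For *Meg3* they were *Lin28b*, an RNA-binding protein gene (0.98), *Rian* (0.98) and *Phf24* (0.98). The points share 2 libraries and the split of neurons from glia, and the correlations are a description. *Meg3* and *Rian* correlated with *Ube3a* at 0.975 and 0.969, close to *Snhg14* at 0.983. *Peg3*, *Mirg* and *Snrpn* correlated with *Ube3a* at 0.90, 0.92 and 0.86, and *Ndn* at −0.63.

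The other genes of each region were taken from lists of neighbours. Around *Ube3a*, 12 of 13 neighbours were in the counts and 11 had at least 200 UMIs, of which 0 were at least 1.2-fold higher and 2 lower in HET (15.6% and 33.6% of all tested genes were), *Mkrn3* (−0.47, 229 and 156 UMIs) and *Oca2* (−1.14, 169 and 72 UMIs). *Mkrn3*, a paternally expressed ring finger gene, lies beyond *Magel2*, and *Oca2* is a pigmentation gene. In neuronal clusters alone *Oca2* was not lower in HET, at 0.21 (−0.35 to 0.77, 55 and 57 UMIs). *Mkrn3* stood there at −0.33 (−0.74 to 0.08, 123 and 88 UMIs). *Gabra5* and *Gabrg3*, which encode GABA-A receptor subunits, stood at −0.07 and −0.08. *Atp10a* (0.08), *Herc2* (−0.02), *Nipa1* (0.10), *Nipa2* (−0.01), *Cyfip1* (0.06) and *Tubgcp5* (−0.23) stayed within 1.2-fold, and *Peg12* had 8 UMIs. The median of the 11 was −0.02. Of the 11, *Mkrn3* alone lies on the *Snhg14* side of *Ube3a*.

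Around *Meg3*, 8 of 9 neighbours were measured, with 1 at least 1.2-fold higher (*Rtl1*) and 2 lower, beside the same shares of all genes. These were *Dlk1*, the paternally expressed Notch pathway ligand gene of the same imprinted domain, at −0.63 (−0.77 to −0.50), and *Wars*, which encodes tryptophanyl-tRNA synthetase, at −0.52. *Begain* (−0.19), *Wdr25* (0.10), *Yy1* (−0.23), *Ppp2r5c* (0.04) and *Dync1h1* (−0.16) were within 1.2-fold, and the median of the 8 was −0.17. At the *Peg3* locus, 3 of 4 were measured, *Usp29* (0.10), *Zim3* (0.03) and the zinc finger gene *Zim1*, which was higher in HET at 0.88 (0.77 to 0.99). *Snurf*, *Dio3* and *Zfp264* were not analysed here.

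Of 43 other imprinted genes, some of which are also neighbours, 38 were in the counts and 35 had at least 200 UMIs. At least 1.2-fold higher in HET were 4 and lower were 10 of the 35, near the 15.6% and 33.6% of all tested genes, with a median log2 ratio of −0.14. The highest were *Rtl1* (0.91), *Zim1* (0.88) and *Ddc*, the dopa decarboxylase gene (0.29). The lowest were *Cdkn1c*, a cyclin-dependent kinase inhibitor gene (−1.08, 191 and 85 UMIs), *Dlk1* (−0.63) and *Mcts2* (−0.52). In neuronal clusters *Cdkn1c* stood at −0.35 (−1.06 to 0.34, 44 and 31 UMIs), *Dlk1* at −0.60 and *Mcts2* at −0.46. The 5 genes listed as mixed in parental expression had a median of −0.20, with 4 below 0. The 20 paternally expressed genes had a median of −0.01, with 10 above 0 and 10 below. The 10 maternally expressed ones had a median of −0.002, with 5 above 0 and 5 below. Among the 9 genes described here, too, both kinds had genes on either side: of the maternally expressed ones *Ube3a* was higher and *Mirg* lower, and of the paternally expressed ones *Snhg14* was higher and *Ndn* lower.

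Gene length moved with the difference between the libraries. Over 16099 tested genes with 1 GENCODE position, the median log2 ratio went from −0.47 in the shortest of 10 groups of like size (up to 4.46 kb) to 0.12 in the longest (over 143 kb). *Ndn* (3.69 kb) is in the shortest group and *Magel2* (4.63 kb) in the next, whose median was −0.30, and both stood below these medians. *Mirg* (19.7 kb, median −0.16 in its group) and *Peg3* (26.5 kb, −0.12) stood below theirs, and *Meg3* (30.7 kb) at it. *Rian* (57.8 kb) stood at 0.05 in a group with a median of −0.03. *Snhg14* (0.15) and *Snrpn* (0.02) are in the longest group, with a median of 0.12. *Ube3a* (82.8 kb) was at 0.49 in a group with a median of 0.05, and *Rtl1* (11.1 kb) at 0.91 in one with a median of −0.26. Why length moved with the libraries was not tested.

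**Figure D5:**
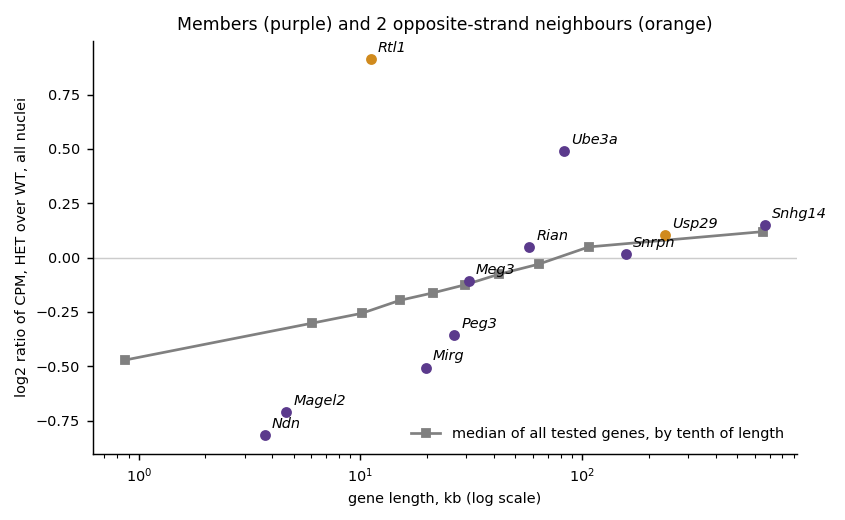
Log2 ratio HET over WT of the 9 genes (purple) and of *Rtl1* and *Usp29* (orange) over all nuclei against gene length (kb, log scale). Grey squares are the medians of all tested genes in 10 groups of equal number by length, drawn at the geometric middle of each group. *Ube3a* and *Rtl1* stood well above the grey line, *Ndn*, *Magel2*, *Mirg* and *Peg3* below it, and *Meg3*, *Rian*, *Snrpn*, *Snhg14* and *Usp29* near it.

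In the oligo cluster, 8 of the 9 genes had at least 200 UMIs. *Ube3a* (0.61), *Meg3* (0.47), *Snhg14* (0.43) and *Rian* (0.30) were at least 1.2-fold higher in HET, 4 of 8 against 16.0% of 8036 genes, and *Ndn* (−0.87) was lower, 1 of 8 against 32.0%. Both libraries summed, the level of these 4 in oligodendrocytes of both labels was 9.43 to 11.5% of the neuronal one, and that of *Rbfox3* 10.8%. The summed level of the 4 neuronal markers in the oligo cluster was 211 CPM in WT and 248 in HET, 2 of them higher (*Rbfox3* at 1.35, *Snap25* at 0.27) and 2 lower (*Slc17a6* at −0.03, *Slc32a1* at −0.56), none at 0, and their part in the result was not tested. In neuronal clusters the same sum was 922 CPM in WT and 1098.5 in HET. *Rbfox3* stood there at 0.42, *Snap25* at 0.25 and *Slc17a6* at 0.18, whereas *Slc32a1* was lower in HET, at −0.77 (−0.87 to −0.68). *Ube3a* per 100 *Snhg14* UMIs in the oligo cluster was 187 (170 to 206) in WT and 213 (198 to 228) in HET, with intervals that met.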

How the data were processed

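Nuclei of the brainstem of 1 WT and 1 HET mouse were analysed. The authors made the deposited counts (UMIs per gene and nucleus) with Cell Ranger on mm10 (version not given in the sources used here) and filtered and clustered nuclei in Seurat 4.1, per the submitters' processing notes. The paper names the recommended parameters of Cell Ranger and does not say whether introns or strand entered the counting. The deposited metadata hold the authors' percent of UMIs from gene classes per nucleus and a doublet score, and nuclei with high scores were kept except in 1 alternative.

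UMIs were summed per library and cluster and divided by all UMIs to give CPM, with exact Poisson intervals. Ratios have exact conditional intervals at 95%, all for counting error only. A tested gene had at least 200 UMIs in both libraries together and a ratio in a cluster at least 20. A gene was counted as higher or lower at 1.2-fold. Non-neuronal nuclei had matching types in both deposited labels, with the ependymal clusters matched to the label of epithelial cells. The depth was 70301390 UMIs in WT and 66176778 in HET. Scripts were tested on simulated data (scipy 1.17.1 and pandas 2.3.3 under Python 3.11.15).

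The genes and lists were chosen with earlier results of these data known, and the 4 motifs with the promoter windows in view. Named genes were the 9 genes, every listed neighbour except 1 that is not reported here, the 3 highest and 3 lowest of the other imprinted genes, and the 3 genes most like *Ube3a*, *Snhg14* and *Meg3* in pattern. *Snap25*, *Rbfox3*, *Slc17a6* and *Slc32a1* served as neuronal markers. Alternatives changed the normalization, the weights of clusters, the filters on nuclei, the fold and the thinning depth.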

Additional observations from a re-analysis of the deposited data

Results flagged for a closer look

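*Snrpn* and *Meg3* differed between the libraries in opposite directions inside and outside neurons. The log2 ratio HET over WT of *Snrpn* was 0.066 in neuronal clusters and −0.24 in the non-neuronal nuclei of both labels. That of *Meg3* was −0.071 in neuronal clusters and 0.45 in those nuclei, where its level was 10.8% of the neuronal one. With 1 library on each side, the difference between the settings was not tested. The summed neuronal markers stood at 209 CPM in WT and 240.1 in HET in the same non-neuronal nuclei, 2 of 4 higher and none at 0. *Rbfox3* (log2 ratio 1.25) and *Snap25* (0.27) were higher in HET, and *Slc17a6* (−0.12) and *Slc32a1* (−0.56) lower. The part of these markers in the result was not tested.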

How the results depend on the processing

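No paired analysis was possible because each genotype had 1 library. For the same reason no library could be left out. No direction that passed 1.2-fold turned under any alternative, and 31 of 36 alternatives kept the counts of the 9 genes within 1.5 times. At 1.5-fold, 0 genes were higher and 2 lower, in all nuclei and in neuronal clusters. With the median gene set to 0, 2 genes were higher in neuronal clusters, and the count of lower genes went from 4 to 3 there and in all nuclei, where *Peg3* (−0.25) dropped out. The log2 ratio of *Ube3a*, 0.49, became 0.54 with equal weights for clusters, 0.59 with the median gene at 0 and 0.43 as a mean of CPM over nuclei. That of *Meg3*, −0.11, became −0.035 with equal weights, −0.0063 with the median gene at 0, −0.12 in nuclei of at least 2000 UMIs, −0.094 without neuron.5 and the clusters under 30 nuclei, and −0.17 as a mean over nuclei. *Snrpn* (−0.06) and *Rian* (−0.0039) turned below 0 as means over nuclei. Using every nucleus of the non-neuronal clusters gave 16.8% of the neuronal level for *Ube3a* and 18.2% for *Meg3*, and Spearman in place of Pearson kept 1 of the 3 genes most like *Ube3a*. The cause of these moves was not tested. Depth limits *Magel2* outside neuron.1 and neuron.2.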
